A study of Homo sapiens with 34 samples.

Results

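H3K4me1, the monomethylated lysine 4 of histone H3, was followed after knockdown of RUNX1T1 in KELLY cells. The members were the H3K4me1 peak lists of the series, chosen by the antibody and treatment in the labels, and they numbered 6 of the 30 peak lists and 6 of all 34 samples. KELLY, a cell line of human neuroblastoma in long-standing use, carries an amplification of MYCN. All 6 samples came from KELLY cells with a stably integrated, doxycycline-inducible short hairpin RNA against RUNX1T1, and which hairpin was used is not stated for these samples. In 3 of them (DMSO replicates 1 to 3) the cells had received the solvent DMSO, so that they carried the hairpin without induction, and in the other 3 (doxycycline replicates 1 to 3) doxycycline, both for 72 h. No H3K4me1 list of cells with doxycycline and no hairpin was among the samples, so knockdown and doxycycline itself cannot be told apart. Nothing in the labels states whether the replicates were separate cultures, so p-values measure the spread between these samples, which may be technical.

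H3K4me1 is laid down mainly by the methyltransferases KMT2C and KMT2D and marks enhancers, also before they are active. Around active promoters it lies to either side of the start site, where H3K4me3 takes its place. The demethylase LSD1 removes it, and RUNX1T1, a corepressor of the ETO family without a DNA-binding domain of its own, acts in complexes that can hold LSD1, CoREST and histone deacetylases. Adrenergic neuroblastoma cells carry H3K4me1 around a core of transcription factors that includes HAND2 and GATA3.

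A peak list gives stretches called enriched over an unenriched input, so it tells where a mark passed a threshold and not how many molecules carried it. The 6 ChIP libraries held 72.5 to 78.1 M reads after removal of excess duplicates. The inputs held 74.5 to 81.5 M reads in DMSO and 57.0 to 63.4 M in doxycycline. The caller scales to the smaller of ChIP and input, so peaks were called at 73.1 to 75.9 M reads for DMSO but 57.0 to 63.4 M for doxycycline, depths that did not overlap between the treatments. Replicates 1 and 3 of a treatment had the same input totals. The shares of redundant reads were 17% and 19% in the third replicates and 8% to 9% in the other 4. The lists held 147426, 102186 and 137227 peaks in DMSO and 127275, 88001 and 107664 in doxycycline, on chromosomes 1 to 22 and X. Every doxycycline list was shorter than the DMSO list of its number and was called at a lower depth. Among the DMSO lists length did not follow depth, as replicate 1 held more peaks at 73.1 M reads than replicate 2 at 74.5 M. The part of the depth in the shorter doxycycline lists was not tested. Deviations from the treatment means correlated between same-numbered lists, so pairs by number are given beside the group values.

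The cell type was checked first. All 7 markers of adrenergic neuroblastoma, among them HAND2, GATA3, ISL1, DBH and TH, had H3K4me1 within 50 kb of the start site in every list, with a median of 24.9 kb under peaks for each gene. Their sums were 245 to 295 kb in DMSO and 226 to 276 kb in doxycycline. Among 14 markers of other lineages 9 had H3K4me1 in all 6 lists, the median gene had 5.16 kb, and the sums were 152 to 189 kb in DMSO and 132 to 180 kb in doxycycline. The albumin gene ALB, a liver marker, had 0 bases in all 6 lists. The KRT14 window had 37431 to 58168 bases under peaks, although KRT14 is an epithelial keratin, so H3K4me1 in a window does not by itself mark the lineage.

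For 3 kinds of region that carry the comparison the central 300 bases of the leading region are shown, read from hg38 on the plus strand. The capitals mark short motifs, on either strand. The motif of HAND2 is the E-box CATCTG and that of E proteins is CAGGTG. Homeodomain factors bind TAATTA, and factors of the GATA family bind AGATAA. The motif of RUNX factors is TGTGGT, and that of AP-1 is TGANTCA with N for any base. The first is the region with the smallest p among those that fell in rank, at HM13 (chr20:31560148-31560447). The second is the leading intronic region with a peak in all 3 DMSO lists and in no doxycycline list, inside SUB1 (chr5:32560227-32560526). The last is the leading intronic region with a peak in all 3 doxycycline lists and in no DMSO list, inside EBF1 (chr5:158911846-158912145).
HM13: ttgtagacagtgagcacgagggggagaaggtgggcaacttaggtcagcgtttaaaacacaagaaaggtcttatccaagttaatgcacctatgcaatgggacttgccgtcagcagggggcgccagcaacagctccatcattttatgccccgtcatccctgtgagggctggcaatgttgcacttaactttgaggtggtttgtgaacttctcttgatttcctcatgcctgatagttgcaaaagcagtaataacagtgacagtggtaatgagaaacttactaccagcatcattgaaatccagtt
SUB1: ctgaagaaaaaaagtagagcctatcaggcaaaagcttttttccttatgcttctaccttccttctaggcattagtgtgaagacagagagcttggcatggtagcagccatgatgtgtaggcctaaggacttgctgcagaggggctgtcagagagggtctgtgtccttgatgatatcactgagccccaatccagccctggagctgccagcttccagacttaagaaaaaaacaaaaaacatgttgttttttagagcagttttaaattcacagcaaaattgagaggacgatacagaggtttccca
EBF1: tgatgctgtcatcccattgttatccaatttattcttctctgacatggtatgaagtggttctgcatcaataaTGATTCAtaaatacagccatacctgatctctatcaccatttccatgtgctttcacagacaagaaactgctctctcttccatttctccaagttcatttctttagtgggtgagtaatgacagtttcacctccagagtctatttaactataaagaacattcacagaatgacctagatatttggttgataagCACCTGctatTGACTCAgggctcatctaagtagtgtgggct
The EBF1 window held 3 matches, of which 2 were to the AP-1 letters and 1 to CAGGTG, and the HM13 and SUB1 windows held none of these motifs.

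By place, doxycycline lists held a larger share of peaks at promoters and a smaller share in introns and intergenic space in every pair. A peak was placed by its midpoint: promoter core within 1 kb of a start site of a protein-coding transcript, promoter flank from 1 to 5 kb, then exon, intron or intergenic. In promoter flanks, where H3K4me1 borders H3K4me3, lay 14.3%, 15.8% and 14.7% of the peaks in DMSO and 15.0%, 16.7% and 16.5% in doxycycline. The doxycycline value was higher in 3 of 3 pairs, but the groups overlapped: the means were 14.9% ± 0.762 and 16.1% ± 0.906 (SD, n = 3 each), and the exact two-sided permutation p was 0.2. Introns held 42.9%, 40.5% and 43.0% in DMSO and 41.8%, 39.2% and 40.7% in doxycycline. This was lower in 3 of 3 pairs, with means of 42.1% ± 1.40 and 40.6% ± 1.27 (n = 3 each; exact permutation p = 0.3). Intergenic peaks made up 27.8%, 26.1% and 27.5% in DMSO and 27.02%, 25.1% and 25.6% in doxycycline, again lower in 3 of 3 pairs (exact permutation p = 0.2). Promoter cores had means of 12.6% and 14.2% (exact permutation p = 0.3) and exons 3.202% and 3.262% (exact permutation p = 0.6), each higher in 3 of 3 pairs. After adjustment over the 5 places the smallest p was 0.375. With 3 lists against 3 the exact test cannot go below 0.1, and over the sign flips of 3 pairs it cannot go below 0.25, which all 5 places reached. Introns and intergenic space hold the weaker peaks: the median peak there stood at the 46.6th to 47.9th percentile of fold enrichment of its list in introns and at the 45.9th to 47.7th in intergenic space, against the 57.4th to 61.3rd in promoter cores. With lists of equal length, made of the strongest peaks of each, the difference in promoter flanks was 0.93 percentage points in place of 1.13 and the groups no longer overlapped (exact permutation p = 0.1).

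**Figure D1:**
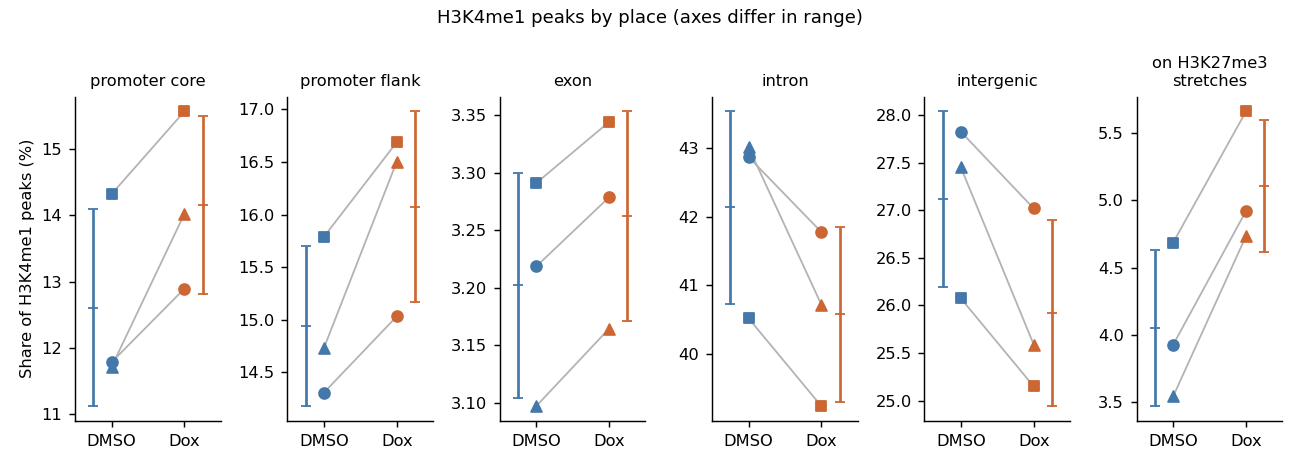
Share of H3K4me1 peaks in each kind of place and on stretches with H3K27me3 in all 6 H3K27me3 lists, in percent of the peaks of a list. Points are lists (circle, square and triangle for replicates 1, 2 and 3; lines join equal numbers), and bars show the mean ± SD of 3 lists; all lines rise at promoters, exons and H3K27me3 stretches and fall in introns and intergenic space.

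Peak width and rank by place moved little. The median peak was 1045, 1076 and 955 bp wide in DMSO and 1060, 1089 and 1002 bp in doxycycline, a difference of 0.04 on the log2 scale (exact permutation p = 0.6). With lists of equal length the difference changed sign to -0.13. In promoter flanks the median width was 1267, 1147 and 1066 bp in DMSO and 1292, 1197 and 1176 bp in doxycycline, wider in 3 of 3 pairs (exact permutation p = 0.4). The median percentile of fold enrichment in promoter flanks was 55.9, 51.9 and 53.5 in DMSO and 57.6, 52.4 and 54.0 in doxycycline. It was higher in 3 of 3 pairs by 0.936 percentile points on average, less than the SD of 1.98 among DMSO lists (exact permutation p = 0.6), and without doxycycline replicate 1 the difference was -0.541. The medians in introns and intergenic space differed by -0.273 and -0.382 percentile points (exact permutation p = 0.8 and 0.5), and without doxycycline replicate 1 both were above 0, at 0.123 and 0.112. Without DMSO replicate 3 the difference in introns was 0.0983. Peaks of 10 kb or more numbered 1739, 1166 and 853 in DMSO and 1578, 1111 and 895 in doxycycline, so these domains did not separate the treatments.

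Around active start sites H3K4me1 kept its known shape, with 2 shoulders and a dip. The sites were those of 13096 protein-coding genes with H3K4me3 in all 6 H3K4me3 lists. At the start site itself 40.3%, 35.4% and 28.6% of them lay under an H3K4me1 peak in DMSO and 39.6%, 34.7% and 26.99% in doxycycline, lower in 3 of 3 pairs by less than the spread between replicates. The downstream shoulder stood 1250 bp from the start in all 6 lists and reached 63.7%, 50.1% and 51.3% in DMSO and 63.5%, 52.2% and 52.7% in doxycycline. At 750 bp upstream the share was lower in doxycycline in every pair (54.8% and 51.0%, 41.4% and 38.6%, 42.1% and 40.4%). At 2000 bp downstream it was higher in every pair (48.9% and 49.7%, 35.9% and 37.9%, 37.9% and 41.5%). Both distances are picked from the whole profile and were not tested. At the mirror distances the pairs were mixed, with 23.7% and 23.1%, 18.3% and 17.5%, 18.0% and 18.4% at 2000 bp upstream. At 750 bp downstream they were 48.9% and 48.7%, 40.1% and 40.8%, 36.9% and 36.7%. The coverage at the start site over that 2 kb to either side was 1.11, 1.31 and 1.02 in DMSO and 1.09, 1.25 and 0.900 in doxycycline. The difference was -0.09 on the log2 scale (exact permutation p = 0.6), without doxycycline replicate 3 it was 0.03 and without DMSO replicate 2 it was 0.01.

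**Figure D2:**
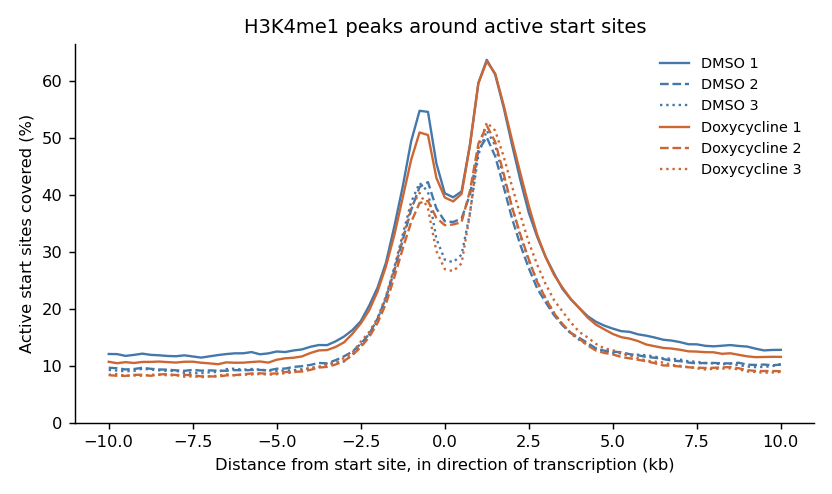
Share of 13096 active start sites under an H3K4me1 peak (in percent) by distance from the start site in kb, positive in the direction of transcription. Each line is a list; replicate 1 of both treatments is highest at every distance, and all lines dip at the start site and peak 1250 bp downstream.

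Chromosome by chromosome, the share of H3K4me1 peaks was higher in doxycycline in 3 of 3 pairs on 8 chromosomes (1, 11, 15, 16, 17, 19, 20 and 22) and lower in 3 of 3 pairs on 7 (2, 3, 4, 5, 6, 13 and 18), with 8 mixed. Chromosome 22 held 2.21%, 2.73% and 2.23% of the peaks in DMSO and 2.38%, 2.91% and 2.65% in doxycycline. The largest mean ratio was there, at 0.15 on the log2 scale, and the groups overlapped (exact permutation p = 0.3). Chromosome 19 held 2.52%, 3.13% and 2.51% in DMSO and 2.68%, 3.24% and 3.06% in doxycycline. Chromosome 4 held 4.89%, 4.08% and 4.81% in DMSO and 4.76%, 3.90% and 4.25% in doxycycline. On chromosome 11 alone the groups did not overlap, with 4.93%, 4.92% and 4.83% in DMSO and 5.001%, 5.016% and 4.955% in doxycycline, a difference of 0.03 on the log2 scale (exact permutation p = 0.1). After adjustment over 23 chromosomes the smallest p was 0.627. GC content moved with this pattern: the 8 chromosomes with a higher share in every pair had 41.5% to 47.9% GC and the 7 with a lower share 38.2% to 40.2%. The part of GC content in this was not tested.

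**Figure D3:**
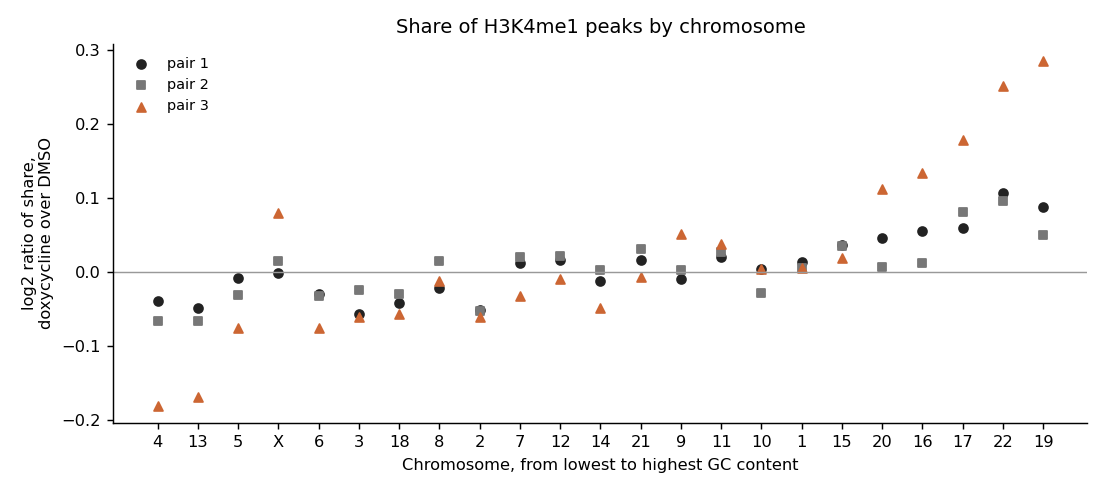
The log2 ratio of the share of H3K4me1 peaks, doxycycline over DMSO, for each chromosome and each pair of equal replicate number, with chromosomes ordered by GC content. The ratios of all 3 pairs are below 0 on chromosomes 4, 13 and 5 at the left end and above 0 on chromosomes 17, 22 and 19 at the right end.

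Merging the 6 lists gave 188491 regions, of which 58979 (31.3%) had a peak in every list and 58256 (30.9%) in a single list. The regions found in all 6 were wider, with a median of 2825 bp, than merged regions as a whole, with 1107 bp. They took 54.4% of the merged regions in promoter cores, 43.3% in promoter flanks, 26.4% in introns and 25.8% in intergenic space. Of the regions of a list, 63.4% (DMSO replicate 2) and 73.9% (doxycycline replicate 2) were found in all 6 in the shortest list of each treatment, and 42.2% in DMSO replicate 1, the longest.

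Regions lost in doxycycline, with a peak in all 3 DMSO lists and in no doxycycline list, numbered 2738, or 1.45% of merged regions, and regions gained numbered 590, or 0.313%. The DMSO lists were the longer and the more deeply called, and with lists of equal length 1697 were lost and 1723 gained. Leaving out 1 list, which eases the rule, gave 3089 to 9567 lost and 743 to 2381 gained. Of those lost, 1326 were intronic (48.4%), 917 intergenic (33.5%) and 270 in promoter flanks (9.86%). Of those gained, 269 were intronic (45.6%), 174 intergenic (29.5%) and 84 in promoter flanks (14.2%). Among all merged regions these places held 44.7%, 29.3% and 13.3%, so the gained regions were spread much as merged regions are. Both kinds were narrow (medians of 1158 and 992.5 bp) and weak (median percentiles of 33.9 and 31.6).

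The lost regions with the highest percentiles included 1 inside PPARD, a nuclear receptor of lipid metabolism (chr6:35396234-35397614). It stood at percentiles 74.6, 80.7 and 86.0 in the DMSO lists, and H3K27ac, the acetylation of active elements, was present there in 3 DMSO lists and in 0 doxycycline lists. The intronic region in SUB1 (chr5:32560153-32560599), a transcriptional coactivator gene, stood at percentiles 70.5, 79.1 and 98.9 with no H3K27ac in either treatment. Between genes, the leading lost regions lay 27096 bp from COL6A3, a collagen VI chain (chr2:237441424-237442820), at percentiles 76.7, 79.4 and 77.4, and 57207 bp from MTHFS (chr15:79774462-79776378), at 86.7, 81.6 and 65.0. In promoter flanks they lay within FAM47E-STBD1 (chr4:76280727-76281291), at 91.8, 88.9 and 97.2, and within PRMT7, an arginine methyltransferase (chr16:68327432-68328817), at 89.1, 71.8 and 97.8.

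The gained region with the highest percentiles lay 3749 bp from CHGB, which encodes the granin chromogranin B of catecholamine vesicles (chr20:5929102-5930787), at percentiles 93.7, 72.3 and 96.2 in doxycycline. Next among intergenic regions was 1 at 34838 bp from SSTR5, a somatostatin receptor (chr16:1036271-1037909), at 86.2, 77.9 and 90.2. Inside EBF1, a transcription factor of B cells and neurons (chr5:158911549-158912441), the percentiles were 84.8, 81.2 and 60.9. The other leading intronic region was in SULF1, an extracellular sulfatase, at 80.3, 52.2 and 88.8. Those in promoter flanks were in NFYB, a subunit of the CCAAT-binding factor NF-Y (chr12:104127108-104127923), at 71.2, 70.6 and 80.5, and in NCF4, a subunit of the phagocyte NADPH oxidase (chr22:36870063-36871626), at 55.3, 72.3 and 87.9. The regions near SSTR5 and in NCF4 lay on H3K27me3, the Polycomb mark, in all 6 H3K27me3 lists.

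The other marks differed between lost and gained regions. H3K27me3 was present in all 3 DMSO lists of that mark at 18.6% of gained regions, 1.17% of lost regions, 6.54% of the regions found in all 6 lists and 5.01% of merged regions. In the doxycycline H3K27me3 lists the shares were 23.1%, 1.61%, 7.42% and 6.19%. H3K27ac was present in all 3 DMSO lists at 9.02% of lost regions and in all 3 doxycycline lists at 3.32%. At gained regions these were 1.36% and 7.97%. Over merged regions as a whole they were 22.4% and 19.6%, and over the regions found in all 6 lists 58.3% and 51.7%. All marks of a treatment were called against the same inputs, so these shares and the H3K4me1 calls are not independent.

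H3K4me1 on H3K27me3 took a larger part of each doxycycline list. The stretches used were those with H3K27me3 in all 6 H3K27me3 lists, 59.5 Mb in all, and this comparison was chosen after the values above were seen. Of the H3K4me1 peaks, 3.93%, 4.69% and 3.54% touched such a stretch in DMSO and 4.92%, 5.66% and 4.74% in doxycycline. The groups did not overlap: the means were 4.05% ± 0.582 and 5.11% ± 0.490 (n = 3 each; exact permutation p = 0.1, the smallest possible). With lists of equal length the difference was 1.12 percentage points in place of 1.05 and the exact permutation p was 0.2, and at a q of 0.001 they were 1.03 and 0.3, so the smallest p was not reached there. The number of such peaks also went up in each pair, from 5789 to 6264, 4789 to 4983 and 4862 to 5098, while the lists as a whole became shorter. In this number the groups overlapped (exact permutation p = 0.5). In introns and intergenic space the share was 2.28%, 2.62% and 2.09% in DMSO and 3.12%, 3.40% and 2.82% in doxycycline, again without overlap (exact permutation p = 0.1). The number of these distal peaks went from 2373 to 2728, 1786 to 1926 and 2018 to 2016, so that in the third pair the share was higher without more peaks (exact permutation p = 0.7). Within their lists these distal peaks stood higher in 3 of 3 pairs, with median percentiles of 34.9, 41.1 and 33.9 in DMSO and 41.3, 44.6 and 39.6 in doxycycline (exact permutation p = 0.2). At promoters the medians were 63.2, 71.5 and 59.6 in DMSO and 68.2, 67.4 and 59.2 in doxycycline, lower in 2 of 3 pairs (exact permutation p = 1), and over all such peaks the pairs were mixed (exact permutation p = 0.8). The H3K27me3 lists themselves were uneven, with 62490, 84725 and 157087 peaks in DMSO and 66540, 56926 and 135665 in doxycycline, which is why only stretches in all 6 were used.

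The short motifs were counted in the central 300 bases of the 139515 intronic and intergenic regions, of which 2243 were lost and only 443 gained. The GATA letters AGATAA were in 29.0% of lost, 18.1% of gained and 25.6% of all such regions. The AP-1 letters TGANTCA were in 9.41% of lost, 16.5% of gained and 11.1% of all. TAATTA was in 10.1%, 14.9% and 13.7%, and CAGGTG in 19.3%, 26.6% and 20.8%. CATCTG (25.3%, 24.6% and 23.5%) and TGTGGT (18.3%, 16.9% and 18.4%) differed less. The windows' median GC was 44.3% in lost, 45.0% in gained and 43.3% in all, and a match is a description of letters, not of a bound site.

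Within the 58979 regions found in all 6 lists, the rank of the highest fold enrichment was compared with limma after quantile normalisation, with Benjamini-Hochberg adjustment at 0.05. It rose in 5 regions (0.00848% of those tested) and fell in 6 (0.0102%). Their lists did not overlap in 8.66% of all regions upward and 8.57% downward, and an unadjusted p under 0.05 was reached by 6.19% and 6.25%. With the replicate number as a block none of the 11 remained called, with 0 regions past the threshold in either direction, while median centring gave 60 and 46. Without DMSO replicate 2 there were 90 and 78, and without any of the other 5 lists at most 1 in either direction. Each of the 9 regions named below lost its call without each of those 5 lists, except that at NCF4, which stayed called without doxycycline replicate 2 (adjusted p = 0.0476).

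Among the regions that rose in rank, that at SNRPC, which encodes a protein of the U1 splicing particle (chr6:34758051-34759380), was at percentiles 33.2, 35.3 and 0.604 in DMSO and 97.5, 96.3 and 98.3 in doxycycline. The rise was 0.87 ± 0.12 (SE) on the log2 scale (limma, adjusted p = 0.0196), and the 2 groups of lists lay far apart. The region at the end of NCF4 (chr22:36877203-36880202) went from 12.2, 1.59 and 4.30 to 97.4, 84.6 and 92.0 (adjusted p = 0.0196), a few kilobases from the gained flank of the same gene. The region 41207 bp from MICALL2 (chr7:1385130-1387258) went from 7.92, 36.0 and 0.0969 to 97.1, 91.3 and 92.9 (adjusted p = 0.0353). That inside CACNA1H, a T-type calcium channel (chr16:1180525-1185550), went from 72.2, 75.1 and 39.3 to 99.5, 98.8 and 98.6 (adjusted p = 0.0419). The remaining called region, named after its values were seen, lay 10120 bp from TPSD1, a tryptase (chr16:1269128-1273427), and went from 70.6, 39.8 and 68.8 to 99.3, 95.8 and 99.3 (adjusted p = 0.0461). The regions at NCF4, MICALL2, CACNA1H and TPSD1 all had H3K27me3 in 6 of 6 lists of that mark, and that at SNRPC had H3K27ac and H3K4me3 in 6 of 6. Their GC content was 50.5% at NCF4, 65.1% at MICALL2, 64.6% at CACNA1H, 55.0% at TPSD1 and 46.6% at SNRPC. By their coordinates those at MICALL2, CACNA1H and TPSD1 lie near a chromosome end. Those at CACNA1H and TPSD1 share a stretch of chromosome 16 with the gained region near SSTR5 and the gene C1QTNF8 named below, so they need not be separate findings.

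Among the regions that fell in rank, that at a promoter core within HM13, a signal peptide peptidase (chr20:31559460-31561135), went from percentiles 97.6, 96.5 and 98.9 to 49.1, 23.3 and 45.8. The fall was -0.70 ± 0.11 on the log2 scale (limma, adjusted p = 0.0416). An intronic region 59433 bp from TNP1, the nearest protein-coding gene (chr2:216919497-216920792) went from 98.1, 98.1 and 99.8 to 48.0, 60.8 and 60.4 (adjusted p = 0.0461). H3K27ac was in 3 DMSO lists and 3 doxycycline lists at HM13 and in 3 and 1 at the region near TNP1. In ABTB3 (chr12:107470224-107471040) the percentiles were 99.0, 94.8 and 97.2, then 70.2, 13.1 and 11.1 (adjusted p = 0.0461), and H3K27ac was in 2 DMSO lists and 0 doxycycline lists. In the intergenic region 267306 bp from LUZP2 (chr11:25349944-25351899) they were 92.0, 93.0 and 94.3, then 19.6, 15.3 and 12.8 (adjusted p = 0.0461), and H3K27ac was in 3 and 0 lists. None of these 4 regions had H3K27me3 in any list.

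By place, regions above all DMSO values in the 3 doxycycline lists made up 10.1% in promoter flanks and 10.1% in promoter cores, and regions below them 6.61% and 6.30%. In introns the order turned, with 7.74% above and 9.63% below, as in intergenic space with 8.21% and 9.84%. H3K27ac at the same regions was called against the same inputs, and its own values are given beside these. Over 27991 regions with H3K27ac in all 6 lists, its rank rose in 1203 (4.3%) and fell in 1349 (4.82%) by the same fit. Of 7196 regions in promoter flanks 247 rose and 162 fell. Of 8640 in introns 406 rose and 584 fell, and of 4866 in intergenic space 230 rose and 411 fell. This fit of H3K27ac was not repeated with the GC correction or without single lists. Its counts with the replicate block and with median centring are not given, so these calls stand without the checks given for H3K4me1.

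The covered width passed the threshold in 1 region (0.0017%) and in 0 for narrower ones (limma). At an unadjusted p under 0.05 there were 3627 wider (6.15%) and 4060 narrower (6.88%) regions, and lists did not overlap in 10.1% and 8.92% of regions. The called region lay in RBFOX3, which encodes the neuronal splicing factor NeuN (chr17:79418926-79425217). It had 762, 570 and 435 bp under peaks in DMSO and 4804, 4771 and 5636 bp in doxycycline, a difference of 3.25 ± 0.27 on the log2 scale (adjusted p = 0.0363). With the replicate block its adjusted p was 0.154, and without any 1 of the 6 lists it was 0.0777 or more. In rank of fold enrichment the pairs were mixed there, at percentiles 90.5, 61.1 and 54.2 in DMSO and 74.2, 79.3 and 38.2 in doxycycline. The next 3 did not pass. That in KCNT1, a sodium-activated potassium channel (chr9:135712749-135726629), had 5478, 3800 and 3319 bp in DMSO and 13767, 12653 and 9951 bp in doxycycline (adjusted p = 0.0684). That in RASGRF1 (chr15:79027395-79032985) had 311, 263 and 396 bp, then 5283, 2991 and 2767 bp. That in RBKS (chr2:27869268-27874516) had 844, 301 and 321 bp, then 4186, 2626 and 4909 bp, and H3K27ac in 0 DMSO lists and 3 doxycycline lists. The percentiles of fold enrichment rose in each pair at KCNT1 and RASGRF1 and were mixed at RBKS.

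Among the narrower regions, none passed. That at the start of BOC, a Hedgehog co-receptor (chr3:113208631-113213533), had 3532, 2932 and 3444 bp in DMSO and 874, 491 and 607 bp in doxycycline (adjusted p = 0.0684). A wide intergenic domain 137670 bp from OAT (chr10:124231399-124259633) had 28235, 26509 and 24731 bp, then 20248, 19301 and 18109 bp. That in KCNH1, a potassium channel (chr1:210717154-210719561), had 2024, 1670 and 2254 bp, then 254, 275 and 288 bp. That at REPS1 (chr6:138988485-138994047) had 4536, 3518 and 5385 bp, then 1301, 829 and 775 bp. Rank did not follow width throughout: the REPS1 percentiles of fold enrichment were 62.3, 54.3 and 70.6, then 83.3, 65.3 and 85.8. At KCNH1 the percentiles also rose in each pair, at OAT they fell in each pair, and at BOC the pairs were mixed.

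The widest regions found in all 6 lists lay under peaks for most of their width in both treatments. The first spanned 157067 bp over STRA6, a retinol receptor, and its neighbours ISLR and CCDC33 (chr15:74166513-74323579), with 151095, 146613 and 139336 bp under peaks in DMSO and 156019, 154183 and 143793 bp in doxycycline. The others lay in SLIT3, an axon guidance ligand, in ZFPM1, a GATA cofactor, in ZMIZ1 and in MSI2, an RNA-binding protein, and were 79450, 77583, 75186 and 70953 bp wide. In SLIT3 the doxycycline lists had 76852, 69859 and 68260 bp against 69273, 59293 and 63630 bp in DMSO, with overlap.

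Near genes, H3K4me1 was measured as the bases under peaks within 50 kb of the start site of 17121 protein-coding genes, a value on which a window of neighbours can act together. A single start site was used for each gene, the most upstream, so H3K4me1 at other start sites of a long gene can be missed. It rose for 127 genes (0.742% of those tested) and fell for 120 (0.701%) by limma at an adjusted p of 0.05. With lists of equal length 38 rose and 14 fell. Without DMSO replicate 2 there were 271 and 295, and without any 1 of the other lists 34 to 134 rose and 29 to 85 fell, the fewest without doxycycline replicate 1 and DMSO replicate 1. The 127 lay in 67 separate stretches and the 120 in 98. Lists did not overlap for 10.4% of all genes upward and 9.83% downward, and 7.23% and 7.84% had an unadjusted p under 0.05. With the replicate number as a block 443 rose and 471 fell, which held all 127 and all 120. Median centring in place of quantile normalisation gave 46 and 26, and without the filter on covered bases none was called in either direction.

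The 6 leading genes that rose all had values in the 3 doxycycline lists above all DMSO values. After normalisation the lists did not overlap for any of the 127 genes that rose, so this came with the choice by p and adds no support. UNCX, a homeobox gene of the paraxial mesoderm and nervous system (chromosome 7, start site at base 1232872), had 10973, 8675 and 5818 bases in DMSO and 27786, 21188 and 20240 in doxycycline, 3.01-fold (1.59 ± 0.18 on the log2 scale; limma, adjusted p = 0.00145). C1QTNF8, a secreted protein of the C1q family (chromosome 16, base 1096244), had 4688, 3867 and 2204 bases, then 23122, 17880 and 11035, 4.89-fold (adjusted p = 0.00145). KCNT1 (chromosome 9, base 135702185), the gene of the widened region above, had 7800, 7291 and 5520 bases, then 22793, 22611 and 13568, 3.02-fold. These 3 genes carried the largest folds of the 6. CXCL14, a chemokine (chromosome 5, base 135579279), had 18149, 11461 and 13428 bases, then 31785, 23339 and 24304. DDX51, an RNA helicase of ribosome assembly (chromosome 12, base 132144319), had 13121, 9725 and 8421, then 24506, 19300 and 18160. ADGRA1, an adhesion receptor (chromosome 10, base 133087924), had 27999, 20871 and 16726, then 43657, 34166 and 31574. H3K27me3 lay at the start site in all 6 lists of that mark for 5 of the 6, the exception being DDX51.

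Of the 6 leading genes that fell, MYCN (chromosome 2, start site at base 15940550), the amplified driver of these cells, was listed at 0 bases in all 3 doxycycline lists, against 38462, 11246 and 12886 in DMSO. No fold is given against 0. With peaks of a q of 0.001 or less its adjusted p was 0.539. The start site of MYCN did not have H3K4me3 in all 6 lists of that mark. Of the lost regions 2.52% lay within 5 Mb of MYCN, against 0.579% of merged regions. What the amplification does to calls in this stretch was not tested. CYRIA, a regulator of RAC1 (chromosome 2, base 16666331), less than 1 Mb away, had 37086, 16742 and 15729 bases in DMSO and 6130, 4398 and 5712 in doxycycline. LRRC53 (chromosome 1, base 74512611) had 33377, 25299 and 31413 bases, then 14482, 8779 and 11639, a fall of -1.23 ± 0.15 on the log2 scale (limma, adjusted p = 0.00145). AGR2, a protein disulfide isomerase (chromosome 7, base 16833433), had 10567, 5485 and 10289, then 789, 711 and 739. ACTC1, the cardiac alpha-actin (chromosome 15, base 34795589), had 23992, 21336 and 21042, then 13143, 8570 and 9171. PKDCC, a secreted tyrosine kinase (chromosome 2, base 42048021), had 44089, 38477 and 33840, then 30043, 21461 and 22946. None of these 6 genes had H3K27me3 at the start site in all 6 lists.

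**Figure D4:**
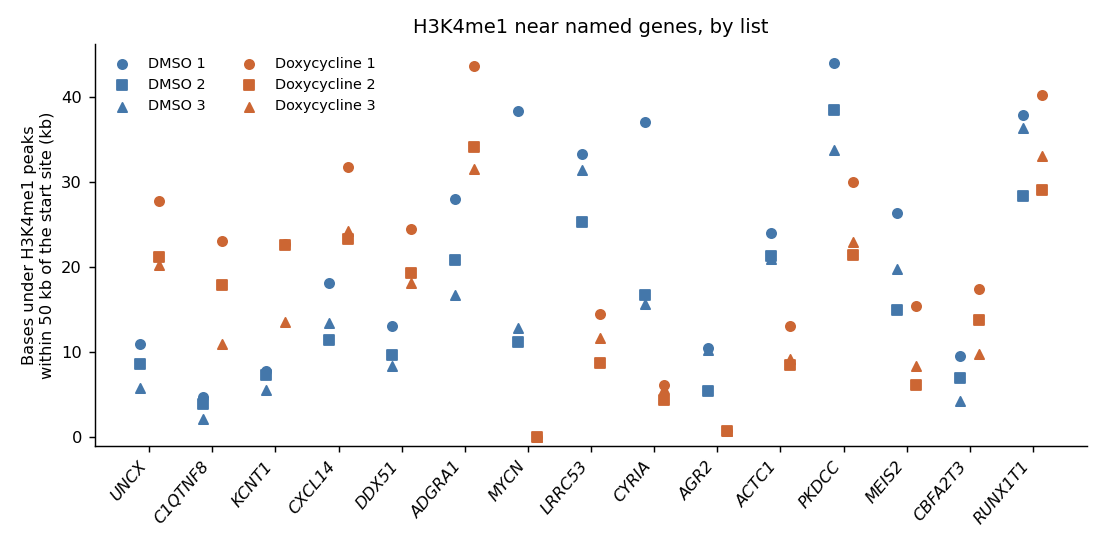
Bases under H3K4me1 peaks within 50 kb of the start site (in kb) for the 6 leading genes that rose, the 6 that fell, MEIS2, CBFA2T3 and RUNX1T1. Points are lists, 3 for each treatment; for UNCX to ADGRA1 all doxycycline points lie above the DMSO points, for MYCN to PKDCC below, and for RUNX1T1 they overlap.

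The genes that rose and those that fell differed in their surroundings. H3K27me3 lay at the start site in all 6 lists for 75 of the 127 genes that rose (59.1%), for 5 of the 120 that fell (4.17%) and for 14.6% of all genes tested. Of the 127, 66 (52.0%) started within 5 Mb of a chromosome end, against 2 of the 120 (1.67%) and 13.1% of all. The median GC content of the 100 kb window was 53.1% for genes that rose, 44.7% for those that fell and 45.1% for all. Chromosome 19 had 16 genes that rose and 1 that fell, chromosome 16 had 14 and 4, and chromosome 9 had 15 and 6. On chromosome 5 there were 2 and 12, on chromosome 15 there were 1 and 10 and on chromosome 3 there were 2 and 11. Other chromosomes were near even, with 15 and 14 on chromosome 1, 7 and 6 on chromosome 22 and 5 and 5 on chromosome 8. These counts are not set against the number of genes tested on each chromosome, so no enrichment of a chromosome is read from them.

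The calls are given by GC content and H3K27me3 side by side. Among the genes with the highest GC of 4 equal classes (50.2% to 64.9%), 704 genes had H3K27me3 at the start site and 52 of these rose (7.39%) and 0 fell. Of the 3576 others in that class 30 rose (0.839%) and 22 fell. In the class with the lowest GC (33.1% to 41.1%), 1 of 474 genes with H3K27me3 rose and 0 fell, and 4 of 3807 others rose and 27 fell. There, 10.8% of the genes with H3K27me3 were above all DMSO values in the 3 doxycycline lists and 2.95% below, against 5.91% and 11.4% of the others. After a correction for GC content, added after the data were seen, 6 genes rose and 14 fell, and with the replicate block as well 0 passed in either direction. The correction moved the median difference of the 127 genes from 0.79 to 0.71 on the log2 scale and that of the 120 from -0.69 to -0.67. All 247 kept their direction, as did 15997 of the 17121 genes tested. The 247 had been picked for their differences in these same lists, so their kept direction is no test of GC content. Among the 12 genes above, MYCN, LRRC53, AGR2 and ACTC1 stayed called after the GC correction without the block. The parts of GC content, chromosome ends and H3K27me3 in these calls were not tested apart.

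**Figure D5:**
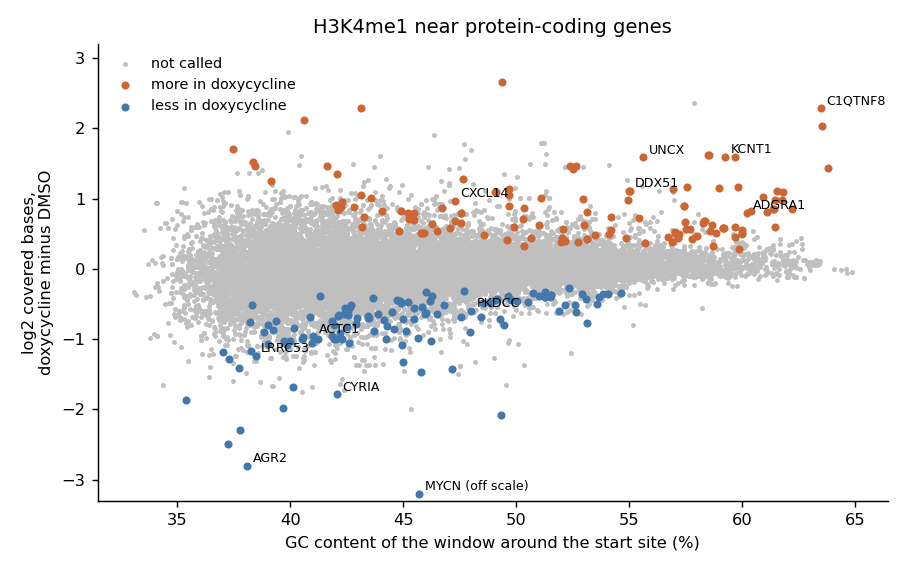
The log2 difference in bases under H3K4me1 peaks, doxycycline minus DMSO, against the GC content (in percent) of the 100 kb window, for 17121 genes. Called genes that rose (127) reach up to 63.8% GC and those that fell (120) up to 54.6%; MYCN is drawn at the lower edge, off scale.

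RUNX1T1 itself, the gene under knockdown, did not pass the test. Its window on chromosome 8 had 37965, 28393 and 36396 bases in DMSO and 40325, 29080 and 33103 in doxycycline, a difference of 0.03 ± 0.12 on the log2 scale (limma, adjusted p = 0.937). A hairpin acts on the transcript, so this window does not check the knockdown.

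The lists of genes tied to neuroblastoma mostly did not pass the test, and their medians are read against 0.01, the median of all genes on the log2 scale. With the replicate block 914 of all 17121 genes passed, and with the block and the GC correction together none did. Among 14 adrenergic core transcription factors 0 rose and 1 fell, with a median of -0.10. The one that fell was MEIS2, a homeodomain factor, with 26434, 14999 and 19851 bases in DMSO and 15484, 6187 and 8382 in doxycycline (-0.90 ± 0.20; limma, adjusted p = 0.0374). Its call was lost without DMSO replicate 1, DMSO replicate 3, doxycycline replicate 2 or doxycycline replicate 3, the highest adjusted p being 0.167. It was also lost after the GC correction (0.124), with lists of equal length (0.116), at a q of 0.001 (0.413), with median centring (0.0806), in a window of 100 kb (0.0539) and with no filter (0.277), and it was kept in 4 of 15 alternatives.

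Among 15 genes of LSD1, CoREST and HDAC corepressors 1 rose and 0 fell, with a median of -0.13. CBFA2T3, the ETO-family relative of RUNX1T1, rose from 9550, 7006 and 4227 bases to 17486, 13783 and 9748, 2.22-fold (1.15 ± 0.24 on the log2 scale; limma, adjusted p = 0.0243). It started 1361 kb from a chromosome end, in a window of 59.0% GC and with H3K27me3 at its start site, and its adjusted p was 0.189 after the GC correction and 0.137 without doxycycline replicate 2 and 0.122 without doxycycline replicate 1. It was 0.192 with lists of equal length, 0.273 at a q of 0.001 and 0.233 with no filter, and the call was kept in 8 of 15 alternatives. The other relative, CBFA2T2, had 22055, 16627 and 22811 bases, then 12998, 13902 and 13192 (adjusted p = 0.172). HDAC2, a deacetylase, had 14962, 12054 and 11295, then 9697, 6143 and 5465. Its limma adjusted p was 0.0886, with the replicate block 0.0352 and after the GC correction 0.116.

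Among 11 MYC partners and targets named by the study, 0 rose and MYCN fell, with a median of -0.02. MXD4, a MAX partner that opposes MYC, had 21419, 16129 and 13323 bases, then 25835, 18501 and 17951. Its limma adjusted p was 0.132, with the block 0.0379 and after the GC correction 0.263. CLNS1A, of snRNP assembly, had 6112, 4725 and 6229, then 3601, 3033 and 2957 (adjusted p = 0.338).

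Among 12 genes of catecholamine synthesis and storage none passed, with a median of -0.05. CHGB had 21000, 9861 and 12146 bases, then 24440, 13585 and 21663, higher in 3 of 3 pairs (0.60 on the log2 scale). Its limma adjusted p was 0.13, with the replicate block 0.0198 and after the GC correction 0.238. The gained region beside CHGB described above lies in this window. The vesicular monoamine transporter genes SLC18A1 and SLC18A2 had adjusted p-values of 0.358 and 0.378.

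Among 19 neuronal differentiation genes none passed, with a median of 0.05. RET, the receptor of GDNF, had 61874, 61280 and 53354 bases, then 73887, 65003 and 68497, without overlap. Its limma adjusted p was 0.0894, with the block 0.0364 and after the GC correction 0.611. GAP43 and CNTN1, of axon growth and contact, had differences of -0.33 and -0.33 on the log2 scale (adjusted p = 0.202 and 0.31). For CNTN1 the limma adjusted p was 0.0438 with the block and 0.435 after the GC correction.

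Among 14 mesenchymal state genes none passed, with a median of 0.09. TWIST1, a factor of epithelial-mesenchymal transition, had 13756, 11711 and 12256 bases, then 9758, 3959 and 7267. Its limma adjusted p was 0.11, with the block 0.0473 and after the GC correction 0.147. FOSL2 and PRRX1 had adjusted p-values of 0.336 and 0.362.

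Among the 13 of 14 H3K4 methylation genes with enough covered bases none passed, with a median of 0.12. PAXIP1, KMT2C and KMT2B had differences of 0.62, 0.41 and 0.26 on the log2 scale (adjusted p = 0.414, 0.459 and 0.466), and KDM6A was below the filter. Of 7 E proteins and inhibitors 6 were tested and none passed, with ID4, ID2 and ID1 at adjusted p-values of 0.39, 0.462 and 0.898. TCF4 had 0 bases in all lists around its most upstream start site, and the rest of the gene was not measured. Of the 14 markers of other lineages 10 were tested and none passed, with EPCAM, PTPRC and DES at 0.369, 0.438 and 0.485. ABCA10, the control gene of the study, was below the filter with 400 to 1322 bases.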

How the data were processed

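Chromatin immunoprecipitation was measured as peak lists. Per the file headers, the authors called broad peaks with MACS2 in each library against an input (q of 0.05, weaker stretches linked at 0.1), with no pooling of replicates. Reads had been aligned to hg38 with Bowtie2. The deposited columns used were the fold enrichment over input (a ratio), the −log10 q-value and the peak length. The labels name single-end reads, the study's methods paired ends, and the headers show calls on single ends.

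Lists were limited to chromosomes 1 to 22 and X. List values were compared by exact two-sided permutation tests over the 20 assignments of lists. Rank of fold enrichment and covered width in shared regions, and covered bases within 50 kb of gene starts (at least 1000 on average, 500 added before the log2), were quantile normalised and fitted with limma 3.58.1 in R 4.3.3, with Benjamini-Hochberg adjustment. Other steps used Python 3.11.15, pandas 2.3.3, numpy 2.4.6 and matplotlib 3.10.9, and were tested on simulated data. Alternatives were equal list lengths, a q of 0.001, other centring, windows and filters, removal of the MYCN surroundings, of each list, and a replicate block. The GC correction and the H3K27me3 stretches were added after the data were seen. Deviations from group means correlated at 0.124 to 0.372 between same-numbered lists and at -0.232 to -0.0434 between others, so numbers were taken to pair the lists. Members and gene lists were chosen with earlier results of these data known.

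Named were RUNX1T1, the 3 genes of each list with the smallest p, the 6 genes and 4 regions per direction with the smallest p (genes over 100 kb apart), the 2 leading lost and gained regions per place, and the 5 widest regions. Read counts behind a single peak were not used, so depth is given per library, and precision is that of 3 lists a group. Some genes, a motif and a sequence that this rule selects are not reported here.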

Additional observations from a re-analysis of the deposited data

How the results depend on the processing

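With 3 lists a group, exact tests could not pass the threshold, and calling depth differed between the treatments without overlap. The 500 added bases were not varied. Directions of the shares by place held under the alternatives run, except that exons differed by -0.0312 percentage points at a q of 0.001. The median width turned to -0.13 with lists of equal length and -0.0495 at a q of 0.001. Chromosomes without overlap numbered 0 at a q of 0.001, and with the replicate block 15 moved one way in all pairs. Regions higher in rank numbered 0 with the replicate block, 60 with median centring, 16 with GC correction and 0 with both GC correction and block, and regions lower in rank 0, 46, 10 and 0, and 3 at a q of 0.001. Wider regions numbered 15 at a q of 0.001, 2 with median centring, and 0 with the replicate block, GC correction or both, and narrower ones 8 at a q of 0.001. Genes with more H3K4me1 numbered 38 with equal lengths, 45 at a q of 0.001, 443 with the replicate block, 46 with median centring, 0 with no filter, 6 with GC correction and 0 with GC correction and block. Genes with less numbered 14, 19, 471, 26, 0, 14 and 0. Lost regions numbered 1697 with equal lengths and 511 at a q of 0.001, and gained ones 1723, 257 and 959 where 0.5 of a region had to be covered. For H3K4me1, the replicate block changed no other call than those given here and in the report. The cause was not tested.

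Leaving out 1 list at a time gave ranges of 0.814 to 1.65 points for promoter flanks, 0.854 to 2.42 for cores, 0.00768 to 0.109 for exons, -2.36 to -0.885 for introns, -1.75 to -0.813 for intergenic space and 0.776 to 1.37 for H3K27me3 stretches, -0.0146 to 0.0714 for the log2 width, -0.541 to 2.07, -0.598 to 0.123 and -0.729 to 0.112 percentile points in flanks, introns and intergenic space, and -0.206 to 0.0324 for start sites. Chromosomes without overlap ranged from 2 to 13, regions higher in rank from 0 to 90, lower from 0 to 78 and wider from 0 to 0. Genes with more ranged from 34 to 271 and with less from 29 to 295, both highest without DMSO replicate 2, and lost regions from 3089 to 9567 and gained from 743 to 2381. Of single genes, RUNX1T1 turned to -0.00105 (log2) with equal lengths and -0.0255 in a window of 100 kb, ID2 to 0.0349 and 0.0329, and SLC18A2, ID1 and DES to 0.00952, 0.0996 and 0.0467 with median centring. Without 1 list RUNX1T1 ranged from -0.112 to 0.184 and ID1 from -0.127 to 0.0474.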
